A study of Mus musculus with 7 samples.

Results

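Spinobulbar muscular atrophy is caused by expansion of a polyglutamine tract in the androgen receptor, and skeletal muscle is one of the tissues it affects. Amino acids enter and leave muscle fibers through membrane carriers, and 6 solute carrier families for amino acids are described here in the quadriceps of AR113Q mice. The families are Slc1, Slc3, Slc7, Slc36, Slc38 and Slc43, and their members were chosen by name: every gene whose array name is one of these family symbols followed by its member number. This gave 42 genes, measured by 57 of the 39429 probes on the array. Of the 42 genes, 27 had a probe that stood well above background on 3 or more of the 7 arrays and were tested, among 16577 genes tested in all.

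WT and AR113Q mice of the C57BL/6 background were compared at 3 months of age, with 4 arrays of the wild type (WT) and 3 of the AR113Q knock-in line. In AR113Q mice a humanized androgen receptor with an expanded CAG tract stands at the locus of the mouse receptor, so that no muscle-specific promoter drives it. The mice were male, and this age precedes motor dysfunction in the line. The labels call the controls WT, whereas the text of the study describes knock-in controls with a short CAG tract, and this difference could not be settled from the arrays. Each array was hybridized with the RNA of 1 mouse in a single dye.

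Amino acid carriers work in different ways. Slc1 members drive glutamate or small neutral amino acids into the cell with sodium or exchange them, Slc38 members carry glutamine, alanine and other small neutral amino acids with sodium, and Slc36a1 and Slc36a2 couple glycine, proline and alanine to protons. Many Slc7 members are light chains that reach the membrane only when joined to a heavy chain of the Slc3 family, the others carry cationic amino acids alone, and the Slc43 members Slc43a1 and Slc43a2 let large neutral amino acids such as leucine pass without a coupled ion. In muscle these carriers supply the leucine, arginine and glutamine that protein synthesis uses and that the mTORC1 kinase complex responds to.

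The probes behind the largest changes and behind a disagreement between probes are shown because each fold change below rests on 1 such 60-base sequence. All were read from the array annotation in lower case, 5′ to 3′, with mm9 positions. The Slc43a1 probe (chr2:84703578-84703637, plus strand) and the Slc7a1 probe (chr5:149139957-149140016, minus strand) gave the largest increases, and the Slc7a10 probe (chr7:35985868-35985927, plus strand) gave the largest decrease under the main settings, though not with normexp background correction or the authors' values, described below. Slc7a5 had a kept probe toward the 3′ end of the gene (chr8:124405136-124405195, minus strand) and another far upstream (chr8:124430996-124431055, minus strand), whose values differed.
Slc43a1: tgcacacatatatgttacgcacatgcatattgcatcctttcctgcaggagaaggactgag
Slc7a1: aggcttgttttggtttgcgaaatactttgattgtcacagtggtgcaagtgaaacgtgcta
Slc7a10: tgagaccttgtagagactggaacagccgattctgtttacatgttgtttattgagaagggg
Slc7a5, 3′ probe: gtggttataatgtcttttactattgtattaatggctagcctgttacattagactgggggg
Slc7a5, upstream probe: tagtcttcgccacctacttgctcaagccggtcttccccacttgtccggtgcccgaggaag

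All values below are quantile-normalized log2 intensities, and all differences are AR113Q minus WT on that log2 scale from limma, with the standard error (SE) and the p-value after Benjamini-Hochberg adjustment over all 16577 genes. The threshold for a call was an adjusted p no higher than 0.05 together with a log2 fold change of at least 1 in size. Each array had 47.6% to 55.8% of its probes well above background, and no spot was saturated. All 8 markers of skeletal muscle fibers were well above background on all 7 arrays, and 0 of the 8 were called. The 5 slow fiber markers set the arrays apart irrespective of genotype, with a mean log2 level between 5.94 and 6.24 on WT replicates 1 and 4 and AR113Q replicates 1 and 2, and between 10.56 and 12.20 on WT replicates 2 and 3 and AR113Q replicate 3. Member counts are therefore also given without the latter 3 arrays. WT replicate 2 and AR113Q replicate 1 shared a slide, the only slide that held both genotypes, and their difference is given as the same-slide value.

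Of the 27 tested carriers, 7 were called higher in AR113Q muscle, namely Slc43a1 (7.26-fold), Slc7a1 (5.27-fold), Slc43a2 (3.36-fold), Slc1a1, Slc7a8, Slc7a5 and Slc36a4. The 4 called lower were Slc7a10 (6.96-fold), Slc36a2 (3.34-fold), Slc1a3 and Slc38a4 (2.85-fold). The Slc7a10 probe was well above background on 2 of 3 AR113Q arrays, and its log2 fold change of -2.80 became -0.97 with normexp background correction and -0.62 with the authors' values, not called under either. The other 16 were not called. Among all genes tested, 11.2% were called higher and 13.1% lower. The AR113Q and WT arrays did not overlap in 15 of the 27 members, against 49.3% of all genes tested. Over the 27 members the log2 fold change had a median of 0.17, and over all genes a median of -0.01. Without the 3 arrays of high slow fiber markers, 8 members were called higher and 4 lower.

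**Figure D1:**
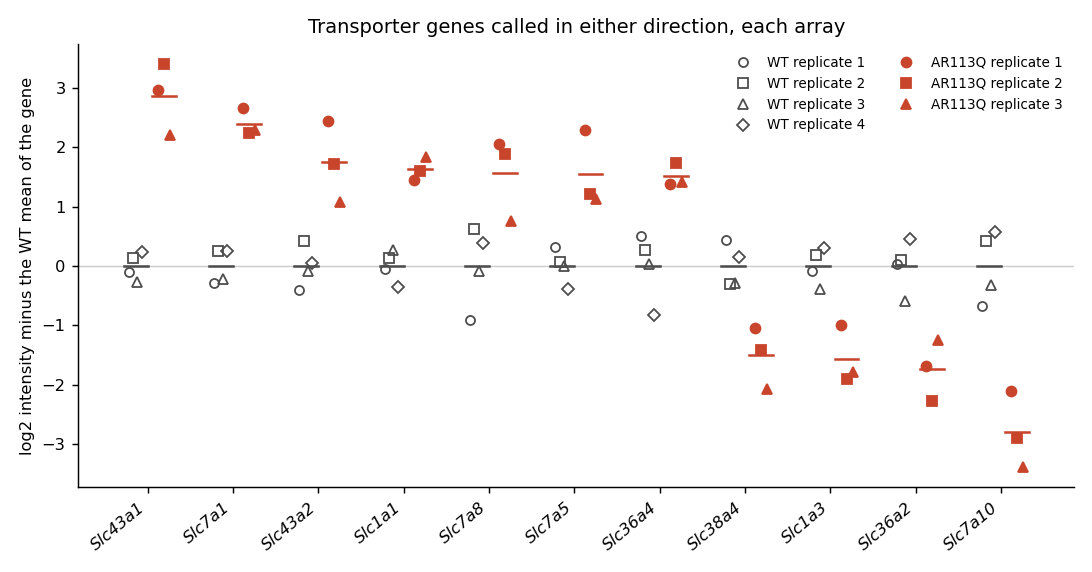
Each point is the normalized log2 intensity of 1 array for a called transporter gene, after subtraction of the WT mean of that gene. Open grey symbols are the 4 WT arrays, filled red symbols the 3 AR113Q arrays, and horizontal bars the genotype means. In all 11 genes the AR113Q arrays lie wholly above or wholly below the WT arrays, and the difference of the means runs from 2.86 for Slc43a1 to -2.80 for Slc7a10.

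Fewer of these calls stood under some other treatments of the intensities, though not with 75th percentile scaling, which called 7 members higher and 5 lower. That scaling called 25.0% of all genes. With the background corrected by the normexp method, 4 members were called higher and 2 lower, and with the authors' normalized values 2 were called higher and 1 lower of 25 tested. Over all genes these settings called 10.6% and 9.17%, against 24.3% under the main settings. Slc43a1, Slc7a1 and Slc38a4 were called under both. When slide was fitted as a fixed effect, only the same-slide pair informed the difference, and limma then called 0 members and 0 genes of the whole array, while the p before adjustment was 0.05 or lower for 10 of the 27 members and for 37.4% of all genes.

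**Figure D2:**
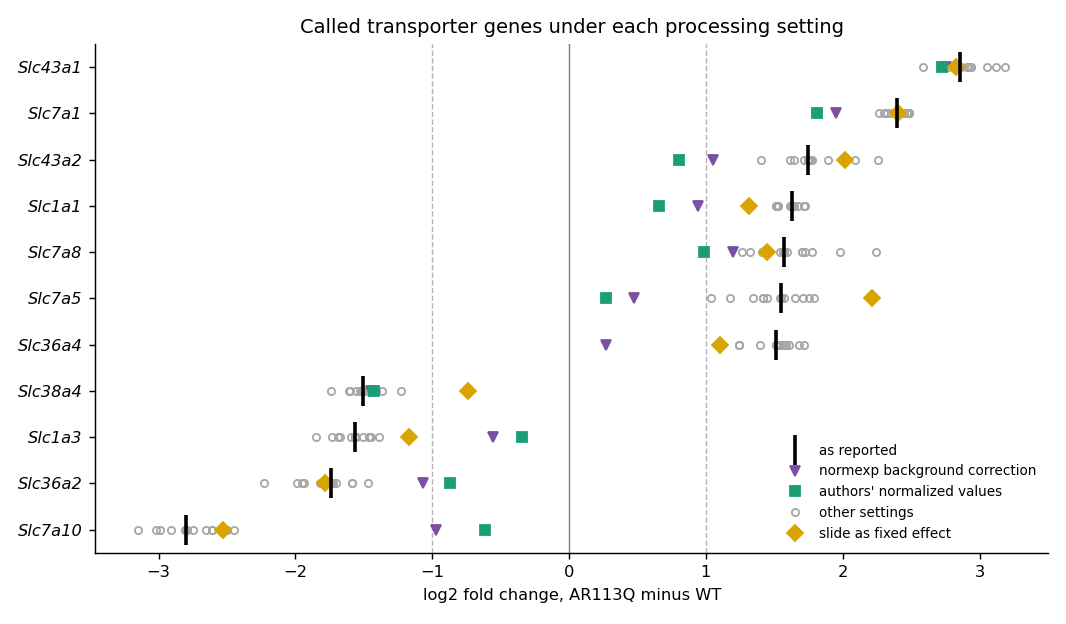
The horizontal axis is the log2 fold change of AR113Q against WT for the 11 called transporter genes, and each symbol is 1 processing setting. Black bars are the values as reported, triangles normexp background correction, squares the authors' normalized values, diamonds slide as a fixed effect and open circles the other settings. Slc43a1 stayed between 2.59 and 3.19, while Slc7a10 ranged from -3.15 to -0.62, and Slc36a4 has no square because it had no value in the authors' table.

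In the Slc43 family, Slc43a1 (LAT3), a uniporter of leucine and other large neutral amino acids, measured 9.55, 9.78, 9.37 and 9.88 on the WT arrays and 12.61, 13.05 and 11.85 on the AR113Q arrays. The lowest AR113Q array lay about 2 log2 units above the highest WT array, and the log2 fold change was 2.86 (SE 0.28, adjusted p = 0.000299 from limma). Its same-slide value was 2.83. This was the largest increase among the members, although its 95% interval (2.21 to 3.51) overlapped that of Slc7a1 (1.92 to 2.87). Slc43a2 (LAT4), a uniporter of the same amino acids, measured 5.69, 6.51, 6.00 and 6.14 in WT and 8.53, 7.81 and 7.16 in AR113Q muscle. All 3 AR113Q arrays were again higher, by 1.75 (SE 0.33, adjusted p = 0.00394), with AR113Q replicate 1 the highest. With the authors' values the increase was 0.80, below the threshold of 1. Slc43a3, which carries purine nucleobases rather than amino acids, was not called, with a log2 fold change of 0.64 (95% interval 0.11 to 1.18, adjusted p = 0.0546) and arrays that overlapped. The median of the 3 genes was 1.75, and it was 1.05 with normexp and 0.80 with the authors' values.

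Among the Slc7 members that carry cationic amino acids without a heavy chain, Slc7a1 (CAT1), which takes up arginine and lysine, measured 7.24, 7.78, 7.30 and 7.78 in WT and 10.18, 9.77 and 9.81 in AR113Q muscle. The arrays of each genotype lay close together, and the lowest AR113Q array was almost 2 log2 units above the highest WT array. The log2 fold change was 2.40 (SE 0.21, adjusted p = 0.000183), and the same-slide value was 2.41. Slc7a2 (CAT2), the related cationic carrier, was not called at 0.50 (95% interval -0.30 to 1.29, adjusted p = 0.279). Its arrays overlapped, since WT replicate 3 was above 2 of the 3 AR113Q arrays. Without the 3 arrays of high slow fiber markers, among them WT replicate 3, Slc7a2 was called higher with a log2 fold change of 1.13. The third cationic member, Slc7a3, and the related Slc7a4 were not well above background on enough arrays to be tested.

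Slc3a2 (CD98 heavy chain), the partner that brings several Slc7 light chains to the membrane, measured 11.30, 11.14, 11.20 and 11.50 in WT and 12.14, 11.91 and 12.17 in AR113Q muscle. The genotypes did not overlap and the adjusted p was 0.00485, but the log2 fold change of 0.79 (SE 0.16) was under 1, so that it was not called. The other heavy chain, Slc3a1, which serves kidney and gut, was well above background on 0 arrays.

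The light chains that join Slc3a2 differed in direction. Slc7a5 (LAT1), an exchanger that brings in leucine against glutamine, measured 4.96, 4.71, 4.64 and 4.24 in WT and 6.93, 5.85 and 5.77 in AR113Q muscle with its 3′ probe. The genotypes did not overlap, and AR113Q replicate 1 stood about 1 log2 unit above the other AR113Q arrays. The log2 fold change was 1.55 (SE 0.31, adjusted p = 0.00499), and the probe was well above background on 3 of 4 WT arrays. The value was 0.47 with normexp and 0.27 with the authors' values, and neither was called. The upstream probe printed above measured 4.88, 4.64, 4.12 and 4.17 in WT and 5.54, 4.48 and 4.90 in AR113Q muscle. These arrays overlapped, and this probe was not called, at 0.52 (SE 0.29, adjusted p = 0.182 in a limma fit over probes).

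Slc7a8 (LAT2), another exchanger of neutral amino acids, measured 6.99, 8.52, 7.82 and 8.29 in WT and 9.96, 9.80 and 8.66 in AR113Q muscle, each value being the mean of up to 10 spots. The spread within both genotypes was wide, and the highest WT array lay just under the lowest AR113Q array. The log2 fold change of 1.57 (SE 0.43, adjusted p = 0.02) no longer passed when AR113Q replicate 1 (1.33) or AR113Q replicate 2 (1.41) was left out, with no filter on dim probes (adjusted p = 0.0561), or with the authors' values (0.99). Slc7a6 (y+LAT2), which exchanges cationic for neutral amino acids, was not called at 0.27 (95% interval -0.20 to 0.75, adjusted p = 0.317). Slc7a7 (y+LAT1), which does the same in epithelia and macrophages, measured 8.01, 8.08, 7.80 and 8.25 in WT and 7.37, 7.45 and 7.07 in AR113Q muscle. All AR113Q arrays were lower, but the log2 fold change of -0.74 (SE 0.17, adjusted p = 0.0101) was under 1 in size.

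Slc7a10 (Asc-1), an exchanger of glycine, alanine, serine and cysteine that is also known as a surface protein of white adipocytes, had the largest decrease under the main settings. It measured 6.24, 7.34, 6.59 and 7.48 in WT and 4.81, 4.01 and 3.52 in AR113Q muscle, where it was well above background on 2 of 3 arrays. The highest AR113Q array lay more than 1 log2 unit below the lowest WT array, and the log2 fold change was -2.80 (SE 0.39, adjusted p = 0.00109), with a same-slide value of -2.53. With normexp and with the authors' values it was exceeded by Slc38a4 (-1.45 and -1.43) and Slc36a2 (-1.07 and -0.87). Of 7 adipocyte markers, 0 were called higher and 5 lower, against 11.2% and 13.1% of all genes tested. Their mean log2 level was 10.61 to 11.61 on the WT arrays and 9.25 to 10.08 on the AR113Q arrays. Of the 7, only Lep was not well above background on all 7 arrays. Adipoq, the fat-cell hormone adiponectin, measured 11.77, 12.27, 11.26 and 12.26 in WT and 9.71, 8.31 and 9.53 in AR113Q muscle, a difference of -2.71 (adjusted p = 0.0012). The part of adipocytes in the Slc7a10 decrease was not tested, and in whole muscle RNA fewer cells of a type and less RNA per cell cannot be told apart.

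**Figure D3:**
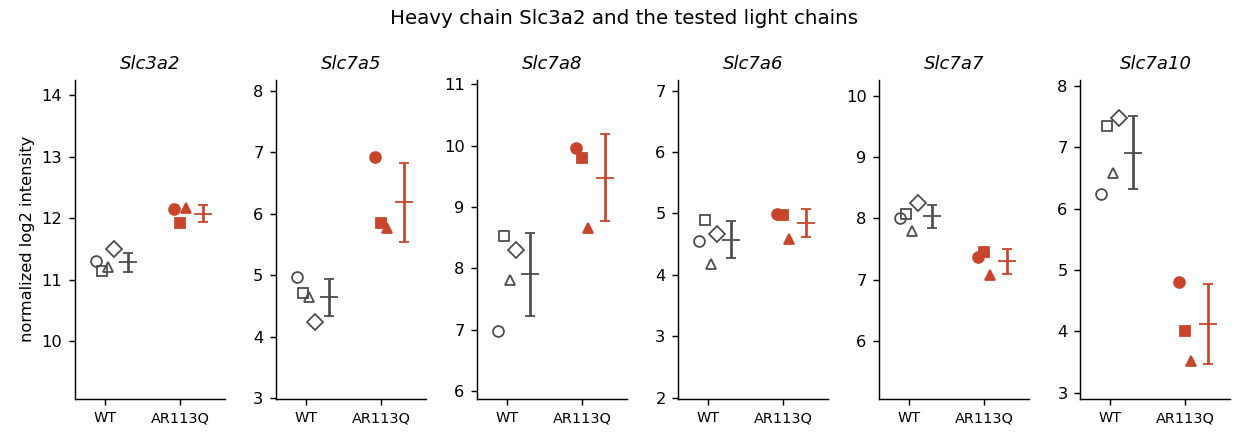
Normalized log2 intensity of the heavy chain Slc3a2 and the 5 tested light chains on each array, with the mean and SD of each genotype beside the points. Open grey symbols are the 4 WT arrays and filled red symbols the 3 AR113Q arrays. All panels span the same range of log2 units around their own centre, so that Slc7a10 shows the widest separation and Slc7a6 overlapping arrays.

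Slc7a9, Slc7a11 (the cystine and glutamate exchanger xCT), Slc7a12, Slc7a13 and Slc7a15, the remaining light chains, were well above background on 0 arrays and were not tested, and neither was Slc7a14. The Slc7 family as a whole had 15 genes on the array, of which 7 were tested. Of these, 3 were called higher and 1 lower, against 11.2% and 13.1% of all genes, and the median was 0.50 on the log2 scale. Over only the probes well above background on all 7 arrays that median was 1.03, and with no filter it was 0.08.

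In the Slc1 family, the glutamate carriers of the plasma membrane went in opposite directions. Slc1a1 (EAAT3), which takes up glutamate, aspartate and cysteine, measured 6.33, 6.51, 6.64 and 6.02 in WT and 7.83, 7.98 and 8.22 in AR113Q muscle with a probe of 10 spots. All AR113Q arrays were more than 1 log2 unit above the WT arrays, with a log2 fold change of 1.63 (SE 0.19, adjusted p = 0.000578). Slc1a3 (GLAST, EAAT1), a glutamate carrier best known from astrocytes, measured 6.72, 6.99, 6.42 and 7.11 in WT and 5.82, 4.90 and 5.02 in AR113Q muscle. Here all AR113Q arrays were lower, with a log2 fold change of -1.56 (SE 0.27, adjusted p = 0.00263). Neither was called with normexp (0.95 and -0.56) or the authors' values (0.66 and -0.34).

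Markers of other cell types that can express Slc1a3 and Slc7a7 were in part lower as well. For comparison, 11.2% of all genes tested were called higher and 13.1% lower. Of 6 macrophage markers, 1 was called higher and 3 lower, and their mean log2 level was 8.62 to 9.47 in WT and 8.22 to 8.81 in AR113Q muscle. Of 6 Schwann cell markers, 0 were called higher and 2 lower, with a mean log2 level of 7.42 to 8.24 in WT and 7.11 to 7.34 in AR113Q muscle. All 12 of these markers were well above background on every array. The part of these cells in the lower values was not tested. For other cell types, 3 of 6 fibroblast markers were called lower, 1 of 6 endothelial markers was called higher, and 0 of 3 erythrocyte markers were called. Of 3 tested satellite cell markers 1 was called lower, Calcr, named after its value was seen, which was well above background on 4 of 4 WT and 0 of 3 AR113Q arrays.

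The neutral amino acid exchangers of the Slc1 family were not called. Slc1a5 (ASCT2), which exchanges glutamine, measured 10.62, 11.32, 10.75 and 11.05 in WT and 9.92, 10.43 and 10.66 in AR113Q muscle. These arrays overlapped narrowly, and the log2 fold change was -0.60 (95% interval -1.15 to -0.04, adjusted p = 0.077), with nearly the same value from its other probe (-0.60, adjusted p = 0.0932 over probes). Slc1a4 (ASCT1), which exchanges serine, alanine and threonine, had a log2 fold change of -0.47 (95% interval -1.19 to 0.24, adjusted p = 0.248) and was not called. The glutamate carriers Slc1a2, Slc1a6 and Slc1a7 of the nervous system and retina were well above background on 0 arrays. The median of the 4 tested Slc1 genes was -0.54, and it was -0.22 with the authors' values and -1.08 with slide as a fixed effect.

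The Slc36 family also held 1 call in each direction. Slc36a2 (PAT2), a carrier of glycine, proline and alanine that also marks the surface of brown adipocytes, measured 8.45, 8.51, 7.83 and 8.87 in WT and 6.73, 6.13 and 7.17 in AR113Q muscle. The genotypes were separate, with a log2 fold change of -1.74 (SE 0.31, adjusted p = 0.00297) and a same-slide value of -1.79. With the authors' values it was -0.87 and not called. The adipocyte marker levels given above moved with this gene too, and their part in it was not tested. Slc36a4 (PAT4), a high-affinity carrier of proline and tryptophan, measured 4.43, 4.20, 3.97 and 3.11 in WT, where it was well above background on 2 of 4 arrays, and 5.31, 5.67 and 5.34 in AR113Q muscle. It was higher by 1.51 (SE 0.31, adjusted p = 0.00542) but by 0.27 with normexp, where it was not called. The other Slc36a4 probe was well above background on 0 arrays and was not kept.

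Slc36a1 (PAT1), the carrier that exports amino acids from lysosomes, was not called, and its direction was not settled. The probe with the higher mean gave -0.12 (95% interval -0.91 to 0.66), and its other kept probe gave 0.96 (SE 0.42, adjusted p = 0.0994 over probes). The former was well above background on 2 of 3 AR113Q arrays and the latter on 1 of 4 WT arrays, and both overlapped between genotypes. Slc36a3, known from testis, was well above background on 0 arrays.

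The sodium-coupled Slc38 family had 9 tested members, the most of any of the 6 families. Of these, 0 were called higher and 1 lower, against 11.2% and 13.1% of all genes tested. Slc38a4 (SNAT4), a carrier of alanine and other small neutral amino acids, measured 11.96, 11.22, 11.24 and 11.68 in WT and 10.48, 10.11 and 9.45 in AR113Q muscle. Every AR113Q array was lower than every WT array, with a log2 fold change of -1.51 (SE 0.29, adjusted p = 0.00413). The same-slide value was smaller, at -0.74.

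The other carriers of small neutral amino acids in this family were not called. Slc38a2 (SNAT2), the amino acid-regulated carrier of alanine and glutamine, measured 12.95, 12.73, 12.20 and 12.73 in WT and 13.26, 12.13 and 13.07 in AR113Q muscle. These overlapped, and the log2 fold change of 0.17 had a 95% interval of -0.53 to 0.86 (adjusted p = 0.682). Slc38a1 (SNAT1), a glutamine carrier, did not overlap between genotypes, at 5.25 to 5.93 in WT and 6.11 to 6.44 in AR113Q muscle, and its log2 fold change was 0.58 (SE 0.20, adjusted p = 0.0472), under the threshold of 1. Slc38a6 fell short of that threshold in the other direction, at -0.85 (SE 0.23, adjusted p = 0.0198) with no overlap. It was the uncalled Slc38 gene with the largest difference, and it was called lower with 75th percentile scaling and without AR113Q replicate 1.

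Slc38a3 (SNAT3), a system N carrier of glutamine and histidine, measured 9.24, 9.92, 9.63 and 9.86 in WT and 7.39, 9.65 and 10.86 in AR113Q muscle. The AR113Q arrays spanned both sides of the WT range, so that the log2 fold change of -0.36 had a 95% interval of -1.96 to 1.24 and the widest SE among the members (0.69). Without AR113Q replicate 1 the value was 0.60. The lysosomal members were also not called. Slc38a9, the arginine-sensing carrier that acts on mTORC1 at the lysosome, measured 7.69, 7.77, 7.57 and 7.67 in WT and 7.72, 7.31 and 6.66 in AR113Q muscle. The WT arrays were almost alike and AR113Q replicate 1 was level with them, while AR113Q replicate 3 was the lowest. The log2 fold change was -0.44 (SE 0.24, adjusted p = 0.173), and its other kept probe gave -0.26. Slc38a7, a lysosomal glutamine carrier, had a log2 fold change of 0.36 (adjusted p = 0.213). Slc38a10 and Slc38a11 had values of 0.10 and -0.36 on the same scale, with overlapping arrays. The other kept Slc38a11 probe, well above background on 2 of 4 WT and 1 of 3 AR113Q arrays, had the opposite sign, at 0.20 (SE 0.42), so that the direction of this gene was not settled. Slc38a5 and Slc38a8 were well above background on 0 arrays. The family median was -0.36, and it was 0.01 with normexp and 0.0045 with the authors' values.

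**Figure D4:**
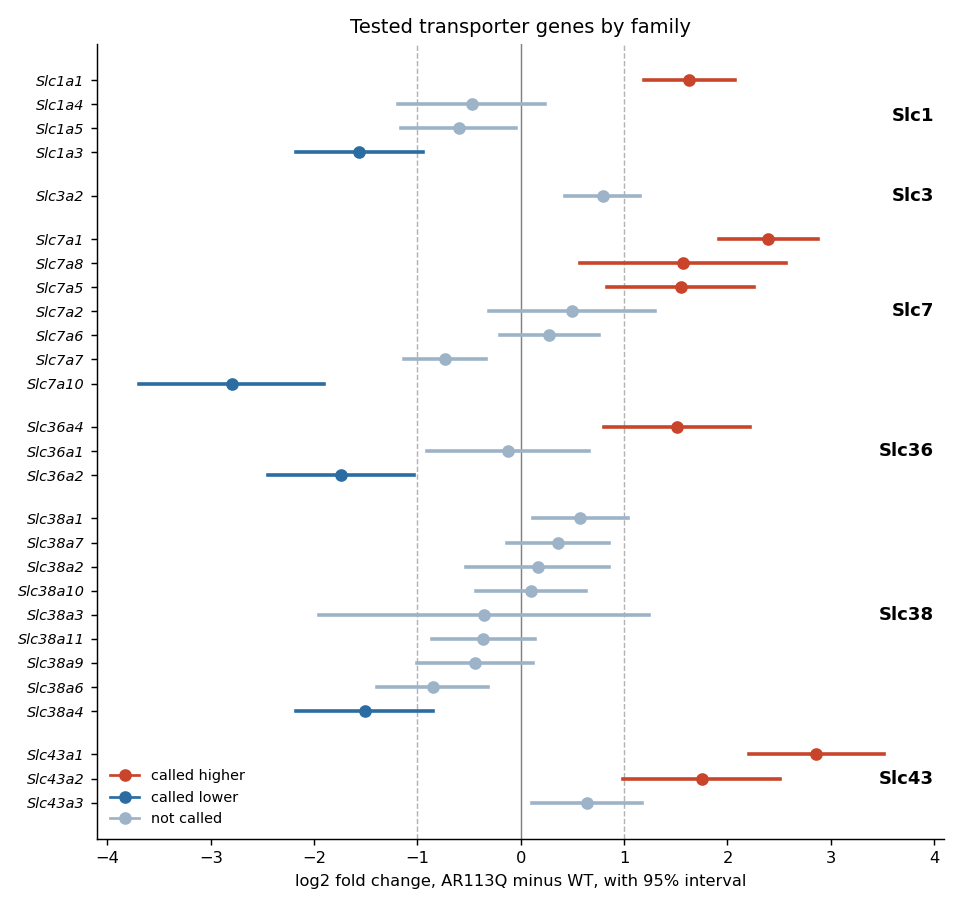
Points are log2 fold changes of AR113Q against WT and lines their 95% intervals from limma for the 27 tested transporter genes, grouped by family. Red genes were called higher, blue genes lower and pale genes not called, and dashed lines mark the fold change threshold. The 3 Slc43 genes lie above 0, and the Slc38 genes lie around 0 with Slc38a4 as the called decrease.

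Promoters were read from the RefSeq promoter table of the GRCm38.p6 build, which covers 250 bases before to 50 bases after each annotated gene start. It matched 31 of the 42 genes with 42 promoters, and Slc1a5, Slc36a2, Slc38a1, Slc38a3, Slc43a3, Slc7a2, Slc7a3, Slc7a4, Slc7a5, Slc7a12 and Slc7a13 were not matched. Both strands were searched for TGATGNAA, the core of the element bound by ATF4 with C/EBP factors, for ACANNNTGT, the core of the androgen and glucocorticoid receptor element, and for CACGTG, the E-box. No matches of different motifs overlapped in the member promoters. TGATGNAA was in 4 of the 42 promoters (9.52%), against 3.97% of all promoters in the table, and these belonged to Slc1a4, Slc7a11 and, with 2 annotated starts, Slc7a7. The 2 Slc7a7 promoters overlap and share a match, so that this site counts in both. By gene, the motif was found in 3 of the 31 matched. ACANNNTGT was in 3 (7.14%, against 6.85%), those of Slc1a2, Slc3a1 and Slc38a11. CACGTG was in 7 (16.7%, against 7.15%), those of Slc1a6, Slc1a7, Slc36a1, Slc38a5, Slc38a7, Slc43a1 and Slc7a14. Among the 9 called genes with a promoter in the table, the only match to any of the 3 motifs was the E-box of Slc43a1. The stretches around 3 matches in tested members are shown with the match in capitals, 5′ to 3′ on the strand of the gene: the E-box of Slc43a1 (chr2:84840243-84840280, plus strand), the gene with the largest increase, and the TGATGNAA matches of Slc7a7 (chr14:54418062-54418101, minus strand) and Slc1a4 (chr11:20332694-20332733, minus strand), the latter read on the opposite strand.
Slc43a1: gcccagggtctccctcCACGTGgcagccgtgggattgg
Slc7a7: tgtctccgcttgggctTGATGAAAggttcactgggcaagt
Slc1a4: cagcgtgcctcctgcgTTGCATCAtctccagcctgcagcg

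Lists of genes that work with these carriers were set beside them. The first list held other amino acid carriers, of which 8 were tested. Of these, 0 were called higher and 3 lower, against 11.2% and 13.1% of all genes tested. Slc6a13 (GAT2), a GABA and taurine carrier, measured 6.52, 6.70, 5.98 and 6.57 in WT and 4.32, 5.10 and 4.04 in AR113Q muscle, a difference of -1.96 (adjusted p = 0.0013). Slc6a9 (GLYT1), a glycine carrier, was lower, at -1.28 on the log2 scale (adjusted p = 0.00149). Slc6a13 was not called with normexp (-0.74) or the authors' values (-0.44), nor Slc6a9 with the latter (-0.96). The remaining one was Slc16a10 (TAT1), the uniporter of aromatic amino acids, named after its value was seen, at -1.18 (adjusted p = 0.023). It was not called with normexp (-0.60), the authors' values (-0.42) or the mean over its probes (-0.44), and not without WT replicate 1 (-1.14), WT replicate 4 (-0.98), AR113Q replicate 2 (-1.06) or AR113Q replicate 3 (-0.96). The 3 did not overlap between genotypes.

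The second list held 36 tested genes of amino acid sensing and of mTORC1, with a median of 0.28. Of these, 4 were called higher and 1 lower, against 11.2% and 13.1% of all genes tested. The 4 increases were thus close to the share over all genes. Sesn1 (sestrin 1), of the sestrin family that holds mTORC1 back when leucine is scarce, measured 4.75, 10.56, 10.08 and 10.06 in WT and 13.39, 13.57 and 13.61 in AR113Q muscle. WT replicate 1 stood far below the other WT arrays, and the log2 fold change was 4.66 (SE 1.28, adjusted p = 0.0198), or 3.29 without that array. The gene was not called without AR113Q replicate 1 (adjusted p = 0.0568), without AR113Q replicate 2 (adjusted p = 0.0561) or with no filter on dim probes (adjusted p = 0.0599). Eif4ebp1 (4E-BP1), the repressor of translation that mTORC1 inactivates, measured 12.53, 13.09, 12.85 and 12.85 in WT and 15.23, 14.97 and 14.23 in AR113Q muscle, a difference of 1.98 (adjusted p = 0.000805). Rragd, a Rag GTPase that recruits mTORC1 to lysosomes, measured 7.25, 7.02, 7.04 and 7.17 in WT and 5.66, 5.70 and 5.36 in AR113Q muscle, a difference of -1.55 (adjusted p = 0.00031), but of -0.80 with normexp and -0.55 with the authors' values, where it was not called. The other calls, Sesn2 (1.38) and Mtor (1.06), were higher and were named after their values were seen. With normexp they were at 0.80 and 0.53 and with the authors' values at 0.61 and 0.37, not called under either, and Mtor also lost its call without WT replicate 3 (0.97), WT replicate 4 (0.99) or AR113Q replicate 1 (adjusted p = 0.0217, just under the fold threshold). The 4 increases became 2 without AR113Q replicate 1, 7 without AR113Q replicate 2 and 9 without AR113Q replicate 3.

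The third list held 22 tested genes of the amino acid response through the transcription factor ATF4, with a median of 0.39. Of these, 6 were called higher and 4 lower, against 11.2% and 13.1% of all genes tested. Trib3, a pseudokinase induced by ATF4, measured 6.29, 7.25, 6.69 and 6.83 in WT and 9.21, 8.37 and 9.65 in AR113Q muscle, a difference of 2.31 (adjusted p = 0.00125). Atf3, a stress-induced transcription factor, rose by 1.94 on the log2 scale (adjusted p = 0.00189). The largest decreases were those of Phgdh and Psph, enzymes of serine synthesis, with Phgdh at 8.57, 9.38, 7.94 and 8.78 in WT and 6.69, 6.62 and 7.05 in AR113Q muscle (-1.88, adjusted p = 0.00244) and Psph at -1.84 (adjusted p = 0.00158, and -0.99 and not called with the authors' values). Psat1, the enzyme between them in that pathway and named after its value was seen, was not called at -0.33 (adjusted p = 0.367). Atf4 itself, named after its value was seen, measured 14.82, 14.82, 14.70 and 14.95 in WT and 16.52, 16.13 and 16.34 in AR113Q muscle, without overlap (adjusted p = 0.000352), and was called higher.

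The last list held 6 genes that regulate carriers at the membrane. Of these, 2 were called higher and 1 lower, against 11.2% and 13.1% of all genes tested. Arrdc3, an arrestin that directs membrane proteins to endosomes, was higher on all 3 AR113Q arrays than on any WT array, by 1.78 on the log2 scale (SE 0.52, adjusted p = 0.0252), and it was not called without WT replicate 1, AR113Q replicate 1 or AR113Q replicate 3. Txnip, a related arrestin that limits glucose uptake, measured 13.86, 13.40, 13.00 and 13.25 in WT and 15.16, 14.80 and 15.08 in AR113Q muscle, a difference of 1.64 (adjusted p = 0.000967). Prkca, a protein kinase C known to drive internalization of Slc7a1, was lower at -1.09 (adjusted p = 0.0438), but was no longer called when any single array other than AR113Q replicate 2 was left out. Without AR113Q replicate 1 the Prkca value was -0.59, and in the other single-array fits that lost the call it was -1.03 to -1.25.

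**Figure D5:**
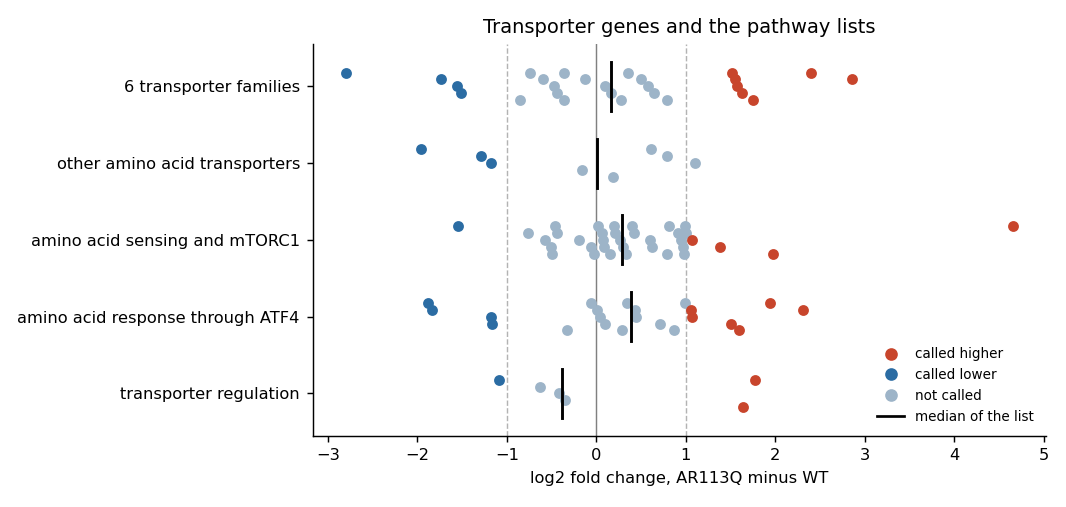
Each point is the log2 fold change of AR113Q against WT of 1 tested gene, for the 6 transporter families and the 4 lists set beside them, with the median of each group as a black bar. Red points were called higher, blue points lower and pale points not called. The 6 families are pooled in 1 row. The 3 calls of the other amino acid transporters are decreases, the remaining groups have calls in both directions, and Sesn1 is the point at 4.66.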

How the data were processed

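The authors hybridized quadriceps RNA of 4 WT and 3 AR113Q mice to 1-color Agilent mouse 4x44K V2 arrays, 1 per mouse, and read them with Feature Extraction 10.7.3.1. The spot intensity values that they deposited are background-subtracted and detrended within an array, without normalization between arrays. A table of log2 values that the authors deposited, and that the methods call quantile normalized, covers 18592 probes, 27 of them of the 6 families, and follows the mean spot intensity before background subtraction (r of 0.991 to 0.999 across probes, which are not independent). How far the sources differ between dim and bright spots was not tested.

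Quantile normalization was applied here to log2 of the background-subtracted intensity, without control spots and without spots marked as outliers (94 to 151 per array). Each gene was represented by its brightest probe among those kept after averaging spots, that is, probes well above background on 3 or more arrays. All 57 member probes were named through RefSeq accessions, and their positions are on mm9. The test was limma 3.58.1 (lmFit, eBayes, no covariates) in R 4.3.3. Of the 16577 genes, 35 lacked a value on some array, and 0 of these were members. The number of arrays limits precision. Simulated data for this comparison (16542 genes, 200 of them shifted) gave 84% recovery and 1 false call for shifts of 2 log2 units, 94% and 10 for shifts of 3, and unshifted data gave 0 calls. In the measured data 7229 genes had an adjusted p of 0.05 or lower, far more than were shifted, so these rates need not hold there. Shifts smaller than 2 were not simulated, so the recovery of smaller changes is not known.

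Members and gene lists were chosen with earlier results of these data known. Named are every called member, every tested heavy and light chain, Slc38a9, the uncalled gene of each family with the largest difference, and the 2 largest called increases and decreases of each list. Slc1a4, Slc7a2, Slc38a1, Slc38a2, Slc38a3, Slc38a7, Slc38a10, Slc38a11 and Adipoq were added after their values were seen, as were list genes so marked in the text. Alternatives were 75th percentile scaling, normexp (offset 50), the authors' values, no filter or a filter on all 7 arrays, averaging a gene's probes, outlier spots kept, an intensity trend, array weights, slide as a random or fixed effect, a replicate block and each array left out. Leaving out the 3 arrays of high slow fiber markers was added after seeing the data.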

Additional observations from a re-analysis of the deposited data

Results flagged for a closer look

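None of the 27 tested members had a WT array whose gap to the nearest other WT array passed Dixon's 95% limit, and groups of 3, such as AR113Q, were not tested. Among the 18 genes named from the pathway and marker lists with values, Sesn1 on WT replicate 1, at 4.75 on the log2 scale, lay far below the other 3 WT arrays, a gap of 0.914 of the range of the 4. Chance puts about 1 in 20 groups past this limit.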

How the results depend on the processing

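No called member changed direction in any of the 20 alternatives that gave it a value, which were 18 for Slc36a4 and 19 each for Slc7a5 and Slc7a10. For the alternatives that leave out arrays or fit slide as a fixed effect, this follows from genotypes that do not overlap. Of 216 recomputed values of the called members, 190 stayed past the thresholds and 26 did not, and of 317 values of the uncalled members, 3 passed them and 20 changed sign. Over the leave-one-out fits, 6 to 7 members were called higher and 4 to 5 lower. With normexp, 4 members were called higher and 2 lower, the Slc38 and Slc43 medians were 0.013 and 1.05, Slc36a1 was 0.071 and Slc38a11 0.013, and the lists gave 1 lower for other carriers and 2 higher and 0 lower for mTORC1 genes. With the authors' values, 2 members were called higher and 1 lower, the Slc1, Slc38 and Slc43 medians were -0.22, 0.0045 and 0.80, Slc36a1 was 0.039 and Slc38a11 0.0045, and the lists gave 0 lower for other carriers and 2 higher and 0 lower for mTORC1 genes. Over all genes tested, calls went from 4030 to 1763 with normexp and to 1365 with the authors' values, and the cause was not tested beyond these settings.

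With slide as a fixed effect, 0 members were called higher and 0 lower, as were 0 genes of every list and 0 of all genes, since only 2 arrays then inform the difference. Slc38a10 was then -0.25 and Slc43a3 -0.023, and the Slc1, Slc3 and Slc7 medians were -1.08, 1.0 and 1.13. With 75th percentile scaling, Slc38a10 was -0.079 and Slc7a6 -0.0059. With no filter, the Slc3, Slc7 and Slc38 medians were 0.42, 0.083 and 0.060, and with the filter on all 7 arrays the Slc7 and Slc36 medians were 1.03 and -1.74. With the mean over probes, Slc36a1 and the Slc36 median were both 0.42 and the Slc38 median was -0.082, and with array weights Slc38a2 was -0.087. Without the 3 arrays of high slow fiber markers, Slc36a1, Slc38a10 and Slc38a2 were 0.66, -0.20 and -0.15, the Slc3, Slc7 and Slc36 medians were 0.63, 1.13 and 0.66, and 8 mTORC1 genes were higher. The 1 lower call among transporter regulators (Prkca) became 0 with 75th percentile scaling, no filter, the mean over probes, array weights, the replicate block and without those 3 arrays, and the 2 higher calls became 1 with no filter and with array weights.

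When each array was left out in turn, Slc36a1 lay between -0.56 and 0.13, Slc38a2 between -0.054 and 0.51, Slc38a3 between -1.14 and 0.60, Slc38a10 between -0.15 and 0.25, and the Slc38 median between -0.44 and -0.054. With no change of sign, Slc38a9 lay between -0.69 and -0.16 and Slc1a4 between -0.85 and -0.28. Slc7a2 lay between 0.23 and 0.81 and Slc38a7 between 0.18 and 0.50. The higher calls ranged from 2 to 9 for mTORC1 genes, from 0 to 1 for other carriers and from 1 to 2 for transporter regulators, whose lower calls ranged from 0 to 1. The sign of Slc36a1 turned without WT replicate 4 (0.016), AR113Q replicate 1 (0.068) or AR113Q replicate 2 (0.13), that of Slc38a2 (-0.054) and Slc38a3 (0.60) without AR113Q replicate 1, and that of Slc38a10 (-0.15) without AR113Q replicate 3. Genotypes share replicate numbers, but same-numbered arrays deviated from their genotype means with correlations of 0.037, -0.022 and 0.156, so the numbers were not taken as pairs. With the replicate block, 7 members were called higher and 4 lower, Slc36a1 was 0.016 and 1 other carrier was higher.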
